A study of Mus musculus with 2 samples.

Results

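The replication histone genes lie in 4 clusters in the mouse genome and supply the histones that package newly copied DNA. They were taken as the GENCODE vM21 protein-coding genes named Hist1h, Hist2h, Hist3h or Hist4h, which gave 67 of 21755 protein-coding genes. Of these, 54 are in Hist1 on chromosome 13, 10 in Hist2 on chromosome 3, 2 in Hist3 on chromosome 11 and 1, Hist4h4, on chromosome 6. CTCF binding was measured by chromatin immunoprecipitation followed by sequencing (ChIP-seq) in midbrain tissue of B6NCrl mice on postnatal day 0. There was 1 group of 2 replicates, and no other genotype or treatment is named in the labels. The labels list 1 biosample and 1 donor for the pair, so differences between the replicates may be purely technical, and sex was not collected. The midbrain holds many cell types, and peak lists do not measure expression, so the tissue label could not be checked against marker genes.

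A promoter peak is a peak of the deposited optimal list whose summit lies within 1 kb of a transcript start. The optimal list is the authors' list of both replicates after a threshold on the irreproducible discovery rate, which compares peak ranks. A cluster window runs from the first to the last gene of a cluster plus 50 kb on each side, and the 4 windows held 84 of the 68590 peaks on chromosomes 1 to 19 and X. Signal is the value the authors gave each peak, and its scale is not stated. The signal of all optimal peaks had a median of 76.5 and ranged from 6.81 to 691. Values from each replicate's own list come from a separate call, so within a peak they are set beside each other and not beside the optimal value. Read depth is unknown, so the lack of a listed peak at a gene does not show that CTCF is absent there.

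H2A, H2B, H3 and H4 form the core of the nucleosome, and H1 binds the linker DNA between nucleosomes. The replication-dependent genes are transcribed mainly in S phase, lack the polyadenylated tail of other messenger RNAs and end in a stem-loop. Many H2A and H2B genes stand head to head and share 1 stretch of promoter DNA. CTCF recognises a directional DNA motif through its zinc fingers and, with cohesin, holds the bases of chromatin loops, most often between motifs that point towards each other.

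Of the 15 distinct peaks within 1 kb of a member start, 4 held a match to a CTCF weight matrix, learned from strong peaks of chromosomes without a histone cluster. The 4 sites are shown because they are the directional CTCF matches in peaks within 1 kb of a histone gene start. The Hist1h4c site lies past the end of its gene, and only the Hist2h4 peak is within 250 bp of the start. Capitals mark the 20-base match, read along the strand of the match, and the lower-case bases are 10 on each side, on build mm10 (GRCm38.p6).
Hist1h4j: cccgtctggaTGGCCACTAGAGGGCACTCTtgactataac
Hist1h4c: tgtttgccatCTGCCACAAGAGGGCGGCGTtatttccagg
Hist2h4: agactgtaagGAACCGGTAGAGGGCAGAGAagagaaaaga
Hist4h4: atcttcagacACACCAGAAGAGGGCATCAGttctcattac
All 4 belong to H4 genes. The most frequent base of the matrix at each position spells TGGCCACCAGGGGGCGCTAT.

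The next 3 sites are shown because they stand at the edges of a run of Hist1 genes or inside a histone gene. They are the peak just outside the first gene of Hist1, the peak just past the last gene of its first part, and the peak in an intron of Hist1h2be.
Beside Hist1h2bl: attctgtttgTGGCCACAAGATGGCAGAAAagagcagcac
After Hist1h2bj: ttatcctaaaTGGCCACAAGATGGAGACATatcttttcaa
Inside Hist1h2be: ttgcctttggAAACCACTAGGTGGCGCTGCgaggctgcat
The first match is on the plus strand of the chromosome and the other two are on the minus strand.

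Promoters from the RefSeq promoter table (GRCm38.p6), given as the 250 bases before the start, show how members of a family differ. Hist1h4f (chr13:23551669-23551918, minus strand) had a peak at its start and Hist1h4i (chr13:22041363-22041612, minus strand) had none, although both encode the same protein. Capitals in Hist1h4f mark a CTCF match that passed only the looser per-position p of 1e-04, and Hist1h4i had no match at that p. In Hist1h2ac (chr13:23683960-23684209, minus strand), capitals mark a TATA box, CCAAT boxes and an octamer, on either strand, and the stretch also lies before its divergent neighbour Hist1h2bc.
Hist1h4f: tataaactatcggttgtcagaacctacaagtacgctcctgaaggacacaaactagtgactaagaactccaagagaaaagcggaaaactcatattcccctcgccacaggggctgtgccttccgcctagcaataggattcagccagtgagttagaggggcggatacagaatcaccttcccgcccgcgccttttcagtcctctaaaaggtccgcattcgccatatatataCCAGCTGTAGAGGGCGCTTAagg
Hist1h4i: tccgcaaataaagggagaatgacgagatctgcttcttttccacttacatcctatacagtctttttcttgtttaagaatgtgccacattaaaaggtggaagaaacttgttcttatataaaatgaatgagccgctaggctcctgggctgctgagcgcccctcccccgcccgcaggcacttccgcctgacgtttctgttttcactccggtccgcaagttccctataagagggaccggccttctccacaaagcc
Hist1h2ac: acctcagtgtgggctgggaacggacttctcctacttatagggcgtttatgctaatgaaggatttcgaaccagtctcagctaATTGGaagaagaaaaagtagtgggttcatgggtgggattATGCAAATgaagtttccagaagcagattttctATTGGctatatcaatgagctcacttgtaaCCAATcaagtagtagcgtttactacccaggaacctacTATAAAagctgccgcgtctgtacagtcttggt

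Promoter peaks were listed at 15 of the 67 histone genes, which is 22.4% (95% Wilson interval 14.1% to 33.7%, counting error only), beside 43.4% of all protein-coding genes. With the outermost start of each gene only, 15 of 67 members had a peak, beside 35.3% of coding genes. Coding genes have a median of 3 annotated starts and histone genes a median of 1, and the part of this in the difference was not tested. Among genes with 1 annotated start, 15 of 63 histone genes (23.8%) and 20.9% of 4789 coding genes had a promoter peak, so the gap to the background was not seen there. Within 5 kb the counts were 31 of 67 members (46.3%) beside 61.3% of coding genes. The strongest peaks of these 15 genes are 13 distinct summits, because 2 summits each count for a pair of neighbours, and Hist1h4a and Hist1h4c each had a second, weaker peak.

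The H4 family had the largest number of genes with a promoter peak. Of 13 H4 genes, 7 had one (53.8%), against 4 of 18 H2A genes, 1 of 18 H2B genes, 2 of 12 H3 genes and 1 of 6 H1 genes. The H4 share lay above the 43.4% of all coding genes and the other families' shares lay below it. Beside the 20.9% of coding genes with 1 annotated start, H4 and H2A (22.2%) lay above, and H1 and H3 (16.7% each) and H2B (5.56%) below. The counts by family moved with the list. H4 had 5 genes with a peak in the conservative list (38.5%), which is below the 41.8% of coding genes there, and 6 in each replicate's own strongest peaks (46.2%, beside 44.0% and 44.1%). H2B had 3 and 4 genes in these lists. The 13 H4 genes all encode 1 protein of 103 residues, as translated from the GENCODE coding sequences, so the 7 genes with and the 6 without a peak do not differ in product.

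H4 is the core histone whose tail is acetylated and methylated by many chromatin enzymes. Hist1h4j had the strongest promoter peak of any member, at 352, with 204 in replicate 1 and 148 in replicate 2. Its summit (chromosome 13, 21734289) was intergenic, 775 bp upstream of the start. Hist1h4c had a peak of 305, with 156 and 149 in the replicates, 874 bp downstream of its start and past the gene. A second peak of 33.8, with 15.5 and 16.7, lay 53 bp inside the coding exon of Hist1h4c. Both strong sites lay well away from the start and held a motif, and the one within the gene did not.

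Hist2h4, the H4 gene of the Hist2 cluster, had a peak of 234, with 119 and 113 in the replicates, at 165 bp upstream. It was the only peak within 250 bp of a member start with a motif match at the main threshold. Hist1h4f had a peak of 171, with 92.6 and 77.8, whose summit was 21 bp upstream of the GENCODE start, next to the site in capitals above. These 2 genes were the members with a strong summit close to the start.

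Hist1h4a had a peak of 89.4, with 50.5 and 40.9, at 974 bp downstream, and a weaker one of 21.7 at 84 bp inside its coding exon. Hist4h4, which stands alone on chromosome 6, had a peak of 25.0, with 18.7 and 7.08, at 996 bp upstream. Hist1h4b had a peak of 23.2, with 15.0 and 7.55, at 30 bp upstream. The H4 signals thus ran from among the weakest optimal peaks (4.96th percentile, Hist1h4b) to the 89.7th percentile (Hist1h4j). The H4 genes without an optimal peak were Hist1h4d, Hist1h4h, Hist1h4i, Hist1h4k, Hist1h4m and Hist1h4n.

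H3 carries the lysine marks of active and silent chromatin on its tail. Hist1h3e had a peak of 230, with 124 and 105 in the replicates, in intergenic DNA 953 bp upstream, with no motif match even at the looser p. Hist1h3b had one of 17.3, with 11.2 and 8.76, which lay in the coding exon of its neighbour Hist1h2ab, so the same summit counted for both genes. The first is among the stronger histone promoter peaks and the second is the weakest. No optimal peak was listed at Hist1h3a, Hist1h3c, Hist1h3d, Hist1h3f, Hist1h3g, Hist1h3h, Hist1h3i, Hist2h3b, Hist2h3c1 or Hist2h3c2.

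H2A and H2B pair as a dimer at the outside of the nucleosome core. Hist3h2a had a peak of 160 in an exon of Hist3h2a that Trim17 overlaps, 454 bp downstream of its start. It was the peak where the replicates differed most, with 34.8 in replicate 1 and 75.7 in replicate 2, a gap of 27.4 percentile points. Replicate 1 listed a stronger peak of 89.6 at 153 bp to one side, so the 2 lists place the summit differently. Hist2h2ab had a peak of 61.1, with 33.7 and 29.7, at 536 bp upstream in an intron of Bola1. A start of Bola1 is nearer to that summit, at 380 bp.

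A summit in the coding exon of Hist1h2ac, at 30.8 with 16.8 and 12.5 in the replicates, lay 214 bp inside that gene and 465 bp upstream of Hist1h2bc, the only H2B gene with a promoter peak. The summit shared by Hist1h2ab and Hist1h3b was 218 bp inside Hist1h2ab. The H2A genes without a peak were Hist1h2aa, Hist1h2ad, Hist1h2ae, Hist1h2af, Hist1h2ag, Hist1h2ah, Hist1h2ai, Hist1h2ak, Hist1h2an, Hist1h2ao, Hist1h2ap, Hist2h2aa1, Hist2h2aa2 and Hist2h2ac. The H2B genes without one were Hist1h2ba, Hist1h2bb, Hist1h2be, Hist1h2bf, Hist1h2bg, Hist1h2bh, Hist1h2bj, Hist1h2bk, Hist1h2bl, Hist1h2bm, Hist1h2bn, Hist1h2bp, Hist1h2bq, Hist1h2br, Hist2h2bb, Hist2h2be and Hist3h2ba.

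Among H1 genes, Hist1h1c, a widely expressed linker histone, had a peak of 25.0, with 16.9 and 7.74 in the replicates, 82 bp inside its coding exon. No optimal peak was listed at Hist1h1a, Hist1h1b, Hist1h1d, Hist1h1e or at Hist1h1t, the testis-specific linker histone. In each of the 15 members except Hist3h2a, replicate 1 gave the higher signal; over all peaks the median log2 ratio of replicate 1 to replicate 2 was 0.3.

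**Figure D1:**
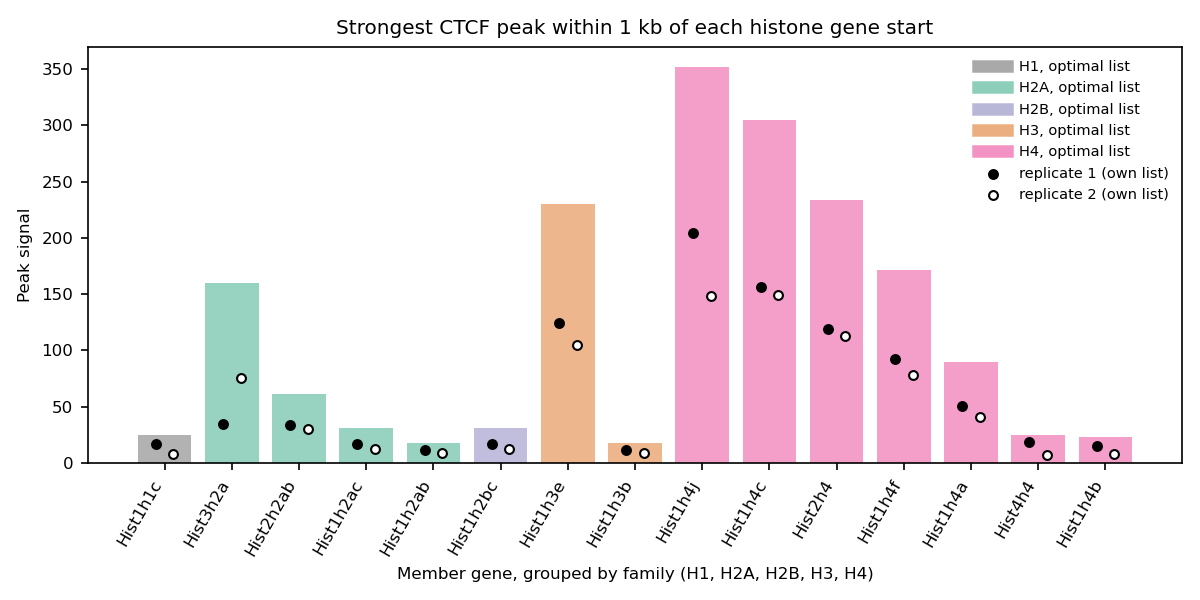
Strongest promoter peak of each of the 15 histone genes that had one, grouped by family, with signal on the vertical axis. Bars are the optimal list and points each replicate's own list; Hist1h4j, at 352, is the highest bar and Hist3h2a is the gene where replicate 2 lies above replicate 1.

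Peaks close to histone starts had a lower median signal than those farther out, with exceptions on both sides. Within 250 bp of a start lay 8 peaks with a median signal of 27.9, of which 1 held a motif match, beside a median of 65.2 and a match in 26.1% for all peaks within 250 bp of a coding start. From over 250 to 1000 bp lay 7 peaks with a median of 160 and 3 matches, beside 65.6 and 38.1%. The windows' 69 peaks farther than 1 kb had a median of 99.5 and a match in 52.2%, beside 79.6 and 62.8% for such peaks of all coding genes. By gene, 8 of 67 members (11.9%) had a summit within 250 bp, beside 28.2% of coding genes, and 4 of 67 (5.97%) had a promoter peak with a match, beside 16.3%. The exceptions are Hist2h4 (234) and Hist1h4f (171) within 250 bp, and Hist4h4 (25.0) and Hist2h2ab (61.1) beyond it, which are below the median of 76.5. The 250 bp class was chosen after the data were seen.

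At the edge of the 1 kb rule, Hist4h4 (996 bp, signal 25.0) and Hist1h4a (974 bp, 89.4) were just inside. Just outside were Hist1h2bj, whose nearest summit at 1105 bp had a signal of 246, and Hist1h2bl, at 1223 bp with 414. The strongest window peak thus stood beside a histone gene without counting as its promoter peak.

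**Figure D2:**
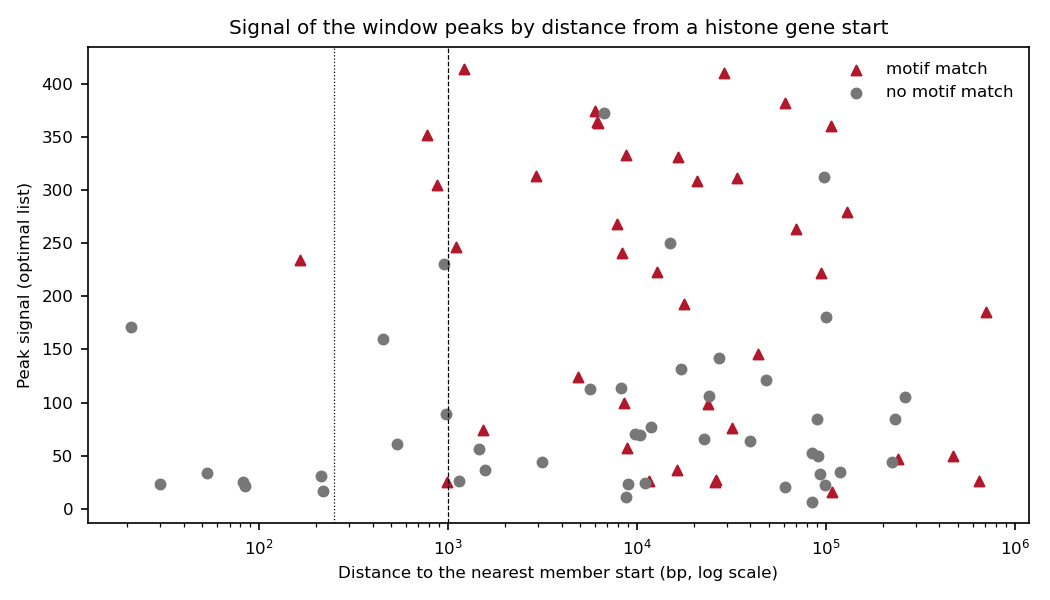
Signal of the 84 window peaks in the optimal list against distance to the nearest member start on a log axis, with motif matches as triangles; the dotted and dashed lines mark 250 bp and 1 kb. Only 2 of the 8 peaks left of the dotted line, at Hist2h4 and Hist1h4f, exceed the median of all peaks.

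Of the 52 histone genes without an optimal promoter peak, 38 had a weaker peak within 1 kb in the longer list called on both replicates, with a median of 12.3 and a highest value of 36.9. That is 73.1% of these members, beside 49.5% of coding genes without an optimal peak, where the median was 13.8. The 36.9 belonged to 1 summit near Hist1h2bb and Hist1h3c, both of which were called in the conservative list. Hist1h4h had 11.4, Hist1h4d 9.28 and Hist1h4k 8.16, while Hist1h4i, Hist1h4m and Hist1h4n had none. The long list holds 299921 peaks, many of them weak, so these values show only that enrichment was listed there. The nearest optimal summit to a member without a promoter peak was 1105 to 96555 bp away, with a median of 8442 bp.

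Histone genes are near copies of each other, and a read that maps to several copies may be lost or misplaced, depending on how reads were mapped, which is not given in the sources used here. To measure this, the share of 31-base words found once in the chromosomes was counted within 1 kb of each start. The median share was 75.4% at histone genes and 98.4% at all coding genes. At 10 members it was under 50%, and none of these had a promoter peak. Hist1h2bq, Hist1h2ao, Hist1h2ap and Hist1h2br had no unique word at all, Hist1h4m had 4.06% and Hist1h4n 4.01%, and Hist2h3c1, Hist2h3c2, Hist2h2aa1 and Hist2h2aa2 had 19.3% to 43.2%.

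At a like share of unique words, members and coding genes were closer. From 50 to under 75%, 4 of 23 members (17.4%) and 13.8% of coding genes had a promoter peak, and from 75 to under 90%, 7 of 23 (30.4%) and 32.7%. At 90% or more the counts were 4 of 11 members (36.4%) and 49.0% of coding genes, and under 50% coding genes had 3.68%. The weak summit in Hist1h2ab lay in sequence with 0% unique words, the one in Hist1h2ac in sequence with 18.1% and that of Hist4h4 in sequence with 33.3%. The number of starts and repeated sequence moved with the low count, and their part in it was not tested. These classes were chosen after the data were seen.

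**Figure D3:**
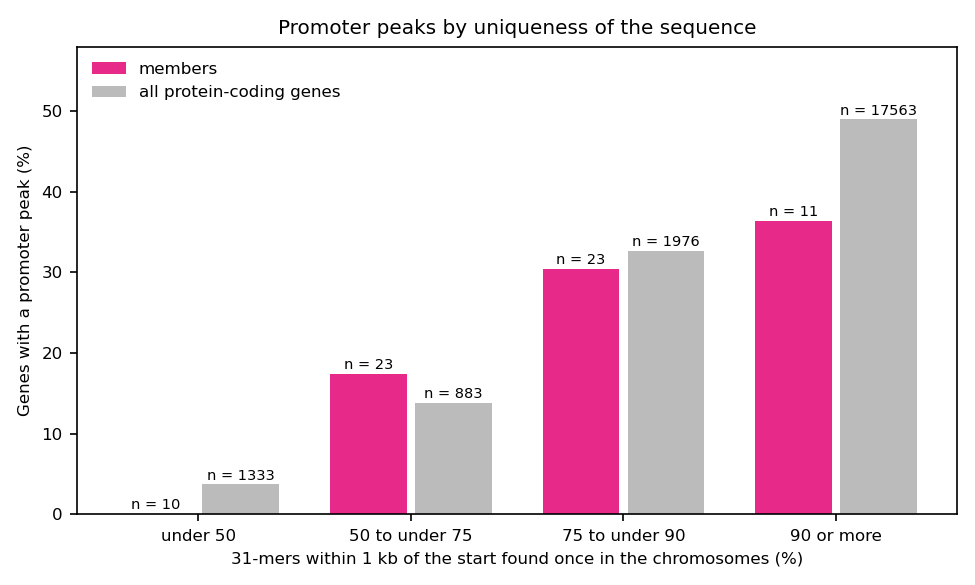
Share of genes with a promoter peak, in percent, by the share of 31-base words within 1 kb of the start that occur once, for histone genes and all protein-coding genes, with n over each bar. Both rise across the classes, and histone genes are above coding genes only from 50 to under 75%.

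Promoter motifs set the families apart. Of the 67 members, 61 matched the RefSeq promoter table, and Hist1h1d, Hist1h2bc, Hist1h3a, Hist1h3f, Hist2h2be and Hist2h4 were not matched. TATAAA, the sequence of a TATA box, occurred on either strand in 55.7% of the 61, beside 13.6% of all 32851 promoters of the table. A copy counted wherever it lay in the promoter window, so these shares are not shares of placed TATA boxes. In the Hist1h4f bases shown above it stands at the end far from the start. CCAAT occurred in 85.2% beside 37.4%, in all matched H1, H2A, H2B and H3 promoters but in 3 of 12 H4 promoters, namely Hist1h4a, Hist1h4c and Hist1h4d. ATTTGCAT, the octamer that Oct-1 binds, occurred in 21.3% beside 1.74%, in 7 H2A and 6 H2B promoters and in no matched promoter of H1, H3 or H4. Head-to-head genes share promoter sequence, so 1 copy of a motif can count for both, as at Hist1h2ah and Hist1h2bk. A CTCF match at the main threshold, in 4.34% of all promoters, was in none of the 61. Hist2h4, whose match is shown above at a peak 165 bp upstream of its start, was not among the 61.

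Head-to-head pairs formed 13 units, 12 of them an H2A with an H2B gene, whose starts stand 176 to 660 bp apart. No optimal summit lay between the 2 starts of any pair, and 1 pair, Hist1h2ac with Hist1h2bc, had a summit within 1 kb. Of the 26 paired genes, 2 had a promoter peak (7.69%), and of the 41 unpaired genes, 13 had one (31.7%), beside 43.4% of all coding genes and 20.9% of those with 1 start. Pairing went with family, because no H4 gene is paired and H4 gave 7 of the 13 unpaired genes with a peak. Among unpaired genes, 3 of 6 H2A genes and 0 of 5 H2B genes had a peak. The higher share of unpaired genes was thus not seen in H2B, where the only gene with a peak, Hist1h2bc, is paired. The median share of unique words was 66.1% at paired and 82.4% at unpaired genes. The parts of family and of unique words in the difference were not tested. The longer list called on both replicates placed a summit between the starts of 4 pairs, the strongest of 16.9 between Hist1h2ah and Hist1h2bk.

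Hist1 is split by a stretch of vomeronasal receptor genes, which encode pheromone receptors. Its first part, of 23 histone genes over 328 kb (chromosome 13, 21715763 to 22043676), had 1 gene with a promoter peak, Hist1h4j (4.35%). Its second, of 31 genes over 404 kb (23531050 to 23934851), had 10 (32.3%). The share was 43.4% over all coding genes and 20.9% over those with 1 annotated start. Between first and last gene lay 12 and 19 optimal peaks, or 36.6 and 47.1 per Mb, and the 1.49 Mb between the parts held 20, or 13.4 per Mb. Chromosome 13 as a whole had 22.1 per Mb. The densities of both parts lay above that of the chromosome, and in the first part 9 of the 12 peaks lay in a stretch without histone genes. The whole Hist1 window held 54 peaks, or 23.3 per Mb, near the density of the chromosome.

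Within the first part the peaks were unevenly spread. Block 1, its first 18 histone genes (122 kb), held 3 optimal peaks, and the longest stretch without one, of 194 kb from 21734289 to 21928751, covered 14 histone genes. Among the 14 is Hist1h4j, whose promoter peak bounds the stretch. The 10 least unique promoters include 6 of the genes in this stretch. Block 2, 5 histone genes in 8.51 kb, held none, and the other 9 peaks of the part lay between the blocks, where there is no histone gene. This gave 24.6 peaks per Mb in block 1, near the 22.1 of the chromosome, and 45.5 per Mb between the blocks. Blocks are runs of genes with gaps of at most 100 kb, a rule set after the data were seen.

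The strongest window peak, at 414 with 212 in replicate 1 and 204 in replicate 2, lay 843 bp before the first base of the first Hist1 gene, in intergenic DNA (21714920). A second, of 374 with 204 and 168, lay at 21710110. Past the last gene of the first part were peaks of 246, with 130 and 116, at 22044319, and of 268, with 154 and 111, at 22051125. The matches of the first 2 are on the plus strand and those of the last 2 on the minus strand, so the motifs at the edges of this part point inwards. Inside lay a peak of 382, with 191 and 191, at 21974338 between the blocks, and one of 372, with 192 and 179, at 22028855, which matched only at the looser p.

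The second part had strong peaks along its length. One of 363, with 184 and 179, lay 6223 bp before the first gene, Hist1h4h, with its match on the minus strand. A peak of 331, with 180 and 151, stood in the intron of Hist1h2be, and further ones of 313 and 364 near Hist1h4c and Hist1h1c. The second strongest window peak, of 410 with 216 and 193, lay at 23792679 beyond the main run of genes. The match at the left edge points away from the genes, so the inward pair of the first part is not repeated there. In all, 11 matches of the Hist1 window are on the plus strand and 13 on the minus strand. No loop was measured, and the matches give orientation only.

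**Figure D4:**
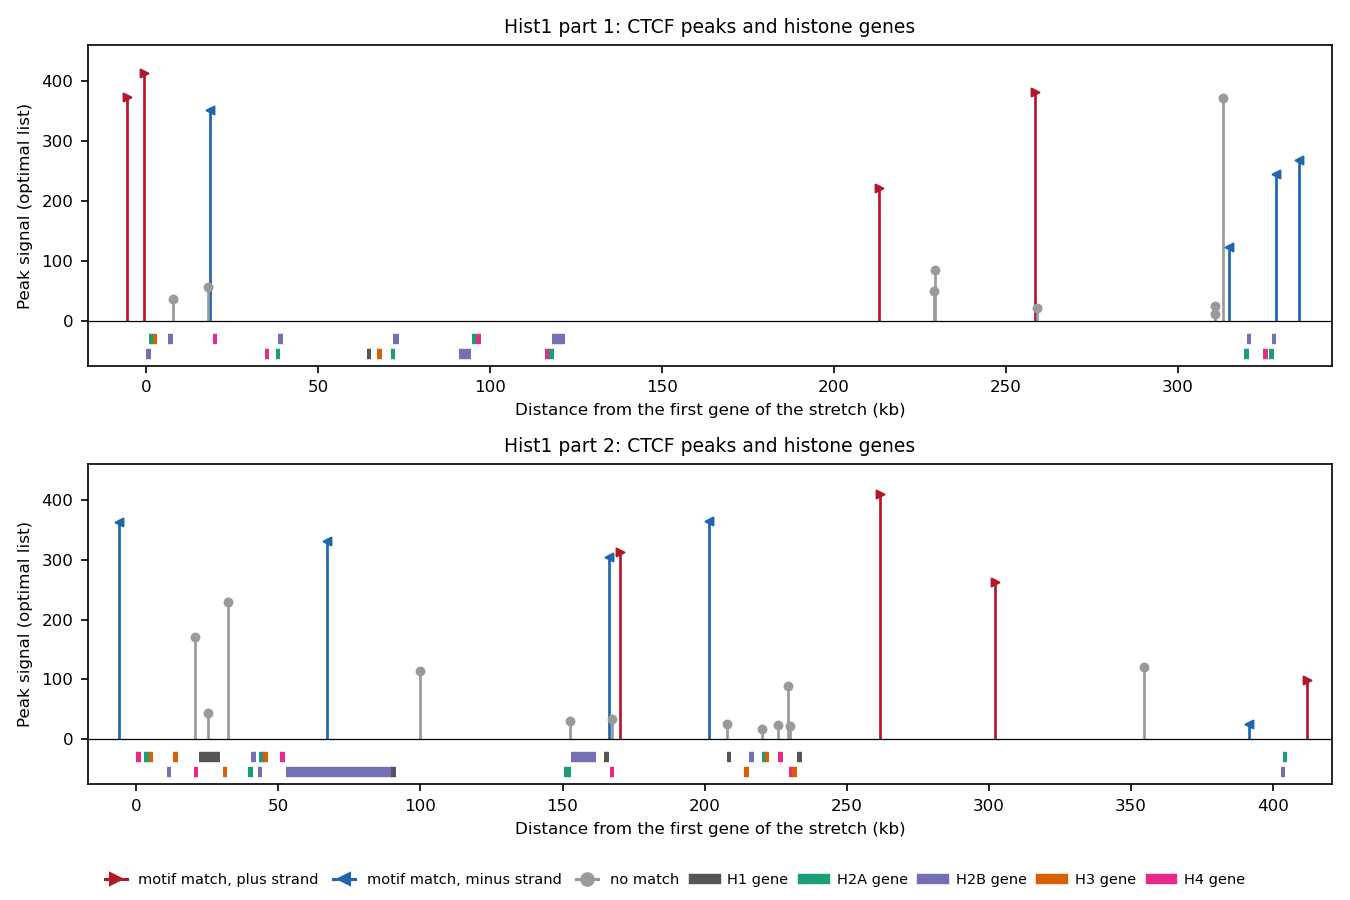
Optimal peaks (stems, signal on the vertical axis) and histone genes (boxes, plus strand above minus strand) along the 2 parts of Hist1, in kb from the first gene, with arrows for motif strand. In the upper panel 14 genes lie in the 194 kb without a peak, among them Hist1h4j beside the peak that bounds it, and the arrows at the 2 ends point inwards.

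Hist2 packs 10 histone genes into 50.3 kb of chromosome 3 and its window held 12 peaks, 79.9 per Mb beside 21.0 for the chromosome. Between first and last gene lay 2 of them, both at Hist2h4, and a stretch of 42.4 kb without a peak covered 7 of the genes. Among the 7 are Hist2h2ab, whose promoter peak bounds the stretch, and Hist2h3c1, Hist2h3c2, Hist2h2aa1 and Hist2h2aa2, with 19.3% to 43.2% unique words. The strongest peaks lay past the last gene, with 333 (175 and 162 in the replicates) at 96278536, 250 (147 and 102) at 96284702 and 241 (131 and 113) at 96278126. Next were the promoter peak of Hist2h4 and a peak of 193, with 91.7 and 104, in an intron of Fcgr1, an antibody receptor gene. The Fcgr1 peak lay in sequence with 0% unique words. The Hist2 genes are thus bordered on one side by a group of strong peaks. The peak nearest the other edge, 536 bp out, is the one counted for Hist2h2ab and lies nearer to a start of Bola1.

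Hist3 holds Hist3h2a and Hist3h2ba, and its window had 14 peaks, or 130 per Mb beside 40.2 for chromosome 11. Its strongest peaks, of 311 (162 and 148) at 58914919 and of 308 (163 and 144) at 58928134, lay upstream of both genes with plus-strand matches. Others were 223 (113 and 111), 142 (84.6 and 61.1) and the peak in Hist3h2a. Within 5 kb of its edges lay also a peak of 26.6 between the genes and one of 113 in an intron of Trim17. The Hist4 window had 4 peaks, 38.9 per Mb beside 25.8 for chromosome 6. They were the promoter peak of Hist4h4, then 57.6 (37.7 and 17.9), 106 (61.6 and 43.1) and 146 (91.0 and 52.9), all before the start of Hist4h4. These windows are short, and 2, 2 and 0 of the Hist2, Hist3 and Hist4 peaks lay between the first and last gene.

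**Figure D5:**
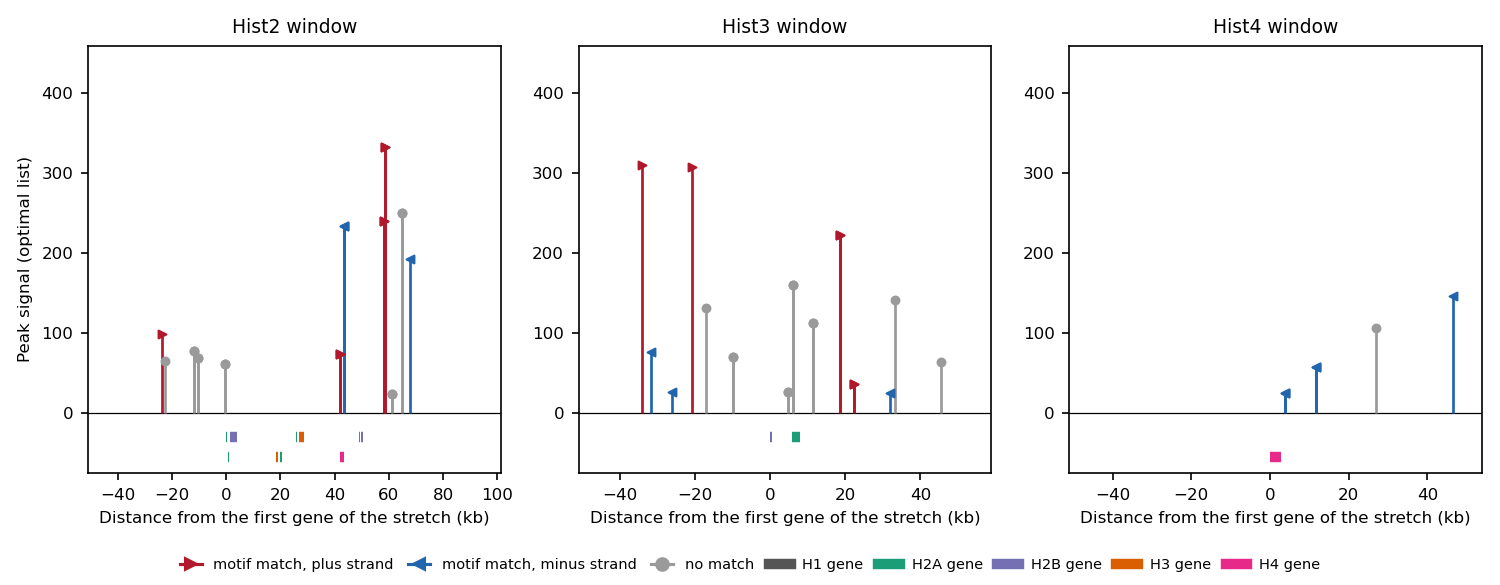
Optimal peaks and histone genes of the Hist2, Hist3 and Hist4 windows, drawn as for Hist1 with signal on the vertical axis and distance from the first gene in kb. The tallest stems, 333 in Hist2, 311 in Hist3 and 146 in Hist4, stand outside the run of histone genes.

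Over the 4 windows, 40 of 84 peaks held a match (47.6%), beside 57.3% of all peaks and 1.06% of flanking windows 1 kb away. The Wilson interval of 37.3% to 58.2% gives counting error only and takes neighbouring peaks as independent. Window peaks with a match had a median signal of 228 and those without one 62.3, beside 128 and 49.2 over all peaks. Of 24 strong sites (per-position p of 1e-06) in the windows, 20 had a summit within 50 bp (83.3%), beside 68.6% of such sites on all chromosomes analysed. Window peaks had a median signal of 94.0 and 8 of 84 (9.52%) were above the 90th percentile of all peaks. Both replicates listed 81 of the 84 within 100 bp. The median gap between the replicates' percentiles was 3.82 points, beside 3.93 over all peaks.

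Some matches lay in repeats. Of the 40 matches, 13 (32.5%) fell mainly in sequence that the genome file masks as repeat, beside 30.5% for all peaks with a match. After its first 3 bases, the 13 bases most frequent in matches over all peaks were CCAGAAGAGGGCA. They were in 7 of the 40 (17.5%), beside 13.2% of all peaks with a match. All 7 were masked, as were 5184 of the 5185 over all peaks. This stretch was looked for after the sequences were seen, and B2 short interspersed elements of rodents are known to carry a CTCF motif. It occurs in the Hist4h4 site above and in the following sites, shown for their likeness to it.
Inside Abt1 (Hist1 window): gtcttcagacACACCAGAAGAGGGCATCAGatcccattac
Downstream of Hist2h4: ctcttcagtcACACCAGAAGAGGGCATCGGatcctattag
The first, at 16.0, was matched within 100 bp in replicate 1 only, at 12.0, and lies in an intron of Abt1. The second, at 74.5 with 38.0 and 33.7, lies in an untranslated or noncoding exon of Hist2h4. It is thus inside the gene, and downstream in its label is counted from the start, at 1535 bp. The 7 peaks had a median signal of 99.5, beside 49.3 for all peaks with the stretch.

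Genes that act with the replication histones were taken as 4 lists, and 30 of their 52 matched genes (57.7%) had a promoter peak, beside 43.4% of all coding genes. Histone variants outside the clusters had one at 7 of 17 (41.2%). H2afz, which encodes H2A.Z, had the strongest, of 341 with 194 and 149 in the replicates, and H3f3b, a gene for H3.3, had 240 with 137 and 102. H2afv, also for an H2A.Z protein, had 156 with 77.7 and 75.9. H3f3a, the other H3.3 gene, and Cenpa, the centromere H3, had none, and H3f3c was not matched to the annotation. Variants and clustered genes that encode the same kind of histone thus include genes with and without a peak.

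Transcription regulators had a promoter peak at 6 of 12. Pou2f1, which encodes the octamer binder Oct-1, had 239, with 129 and 109. Npat, the cofactor of histone gene transcription at histone locus bodies, had 107, with 62.2 and 46.8. Nfya, a subunit of the CCAAT binder NF-Y, had 67.9, with 41.0 and 29.2. E2f1 and Cdk2, which encode cell cycle regulators, had none.

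Genes for 3' end processing of histone RNA had one at 10 of 14. Lsm11, of the U7 small nuclear ribonucleoprotein, had 570 with 310 and 261, above every histone gene, and Cpsf1, of the cleavage complex, had 418 with 219 and 200. Eri1, an exonuclease that trims the stem-loop end, had 76.1 with 43.2 and 29.5. Lsm10, the partner of Lsm11, and Zfp473 had none.

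Histone chaperones, which carry histones to and from DNA, had one at 7 of 9. Asf1b had 434 with 233 and 201, Mcm2, a helicase subunit that also binds histones, had 339 with 176 and 161, and Asf1a had 263 with 149 and 114. Chaf1a, a subunit of the chromatin assembly factor, and Npm1 had none.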

How the data were processed

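CTCF ChIP-seq peaks of newborn mouse midbrain were analysed from 5 narrowPeak lists (mm10). Per the deposited notes, each replicate has its own list made with a control alignment, 1 list comes from both, and the optimal and conservative lists apply a threshold on the irreproducible discovery rate. Caller, aligner, depth and threshold: not given in the sources used here. The signal per peak is the authors' value. The deposited -log10 q value was not used to rank, and the deposited summit offset gave summits, which are 1-based here. Genes came from GENCODE vM21 and sequence from GRCm38.p6, both of the same build.

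Replicate signals are those of the nearest summit within 100 bp in each replicate's own list, and percentiles are ranks among optimal peaks. A 20 bp matrix was learned from 2000 strong peaks of chromosomes without a histone cluster. Matches were scored within 50 bp of the summit at a p of 1e-05 per position, and the method was tested on simulated data. Sub-clusters are runs of members with gaps of at most 200 kb. Uniqueness was counted over 31-base words. Repeat masking is the lower case of the genome file.

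With 1 group no test between conditions exists, so counts are set beside all coding genes or all peaks. The members, lists and motifs were chosen with earlier results of these data known. Every member could be named. Peaks named are the 5 strongest of each window, or all if fewer, those within 5 kb of a sub-cluster's edge, and some chosen after their values were seen. Each other list gives at most 3 genes by signal and at most 2 that had no promoter peak. Alternatives were other lists, promoter distances, flanks and motif thresholds. Tools were Python 3.11.15, numpy 2.4.6, pandas 2.3.3, scipy 1.17.1, pysam 0.24.0, Biopython 1.88 and matplotlib 3.10.9.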

Additional observations from a re-analysis of the deposited data

How the results depend on the processing

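Leaving out a replicate used the other's own strongest peaks, as many as the optimal list holds, which also drops the authors' threshold. Then 16 to 17 histone genes had a promoter peak (15 in the optimal list), with a median percentile of 23.4 to 41.3 (42.9), where only the list without replicate 2 moved by more than the replicates' SD of 3.80. The other genes had 32 to 33 (30), the windows 46 to 52 peaks in Hist1 (54), 12 to 15 in Hist2 (12), 14 in Hist3 and 4 in Hist4 as before, and matches 43.0% to 45.1% (47.6%). The conservative list gave 15 histone genes, of which 12 were shared, without Hist1h1c, Hist1h4b and Hist4h4 and with Hist1h2bb, Hist1h3c and Hist3h2ba.

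With the stronger 50% of the optimal list, 7 histone genes (beside 23.1% of coding genes) and 14 genes of the other lists had a peak, the median percentile within that list was 54.6, the windows held 30, 7, 7 and 2 peaks, and matches were 60.9%. A promoter of 500 bp gave a median percentile of 15.4 and one of 5 kb gave 31 genes and 54.3. Counting each summit for its nearest coding start only left 11 histone genes. Without flanks Hist2, Hist3 and Hist4 held 2, 2 and 0 peaks, and with 100 kb Hist4 held 8. Matches were 71.4% at a p of 1e-04 (78.7% of all peaks) and 23.8% at 1e-06 (30.2%). The cause of these changes was not tested. Chosen after seeing the data, genes with 1 annotated start gave 23.8% beside 20.9% of coding genes, and genes with at least 75% unique sequence gave 32.4% beside 47.4%. Replicates matched within 50 bp at 77 of 84 peaks (81). No paired analysis was possible because there is 1 group. Depth is unknown, so weak or missing peaks cannot be read as absence of CTCF.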
